A study of Mus musculus with 7 samples.

Results

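Pseudogenes are gene copies that have lost, or are thought to have lost, the ability to make the protein of the gene they derive from. A processed pseudogene is a copy of a spliced mRNA that was inserted back into the genome, so it lacks introns and usually the promoter of its parent gene. An unprocessed pseudogene is a duplicated piece of genomic DNA and often lies in a row of related genes. The testis is known for transcribing many gene copies, and several families with numerous copies on the sex chromosomes are active in spermatids.

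The deposited list of the microarray experiment assigned 281 of its 7580 transcript clusters to the class Pseudogene. A transcript cluster is the set of probes that the array reads together as 1 transcript. All 281 were described here, since 0 of them were pseudogenes of olfactory, vomeronasal or trace amine receptors, which would have been left out. The class was checked against the transcript biotypes in the list and against RefSeq. The transcripts were processed pseudogenes for 189 clusters and unprocessed pseudogenes for 78, and the other 14 carried another or no such biotype. RefSeq placed a gene of the same symbol at the position of 226 clusters and called 209 of these pseudogenes, 13 protein-coding genes and 4 other RNAs. The clusters spanned 93 to 63609 bases with a median of 1006, and 224 of them were read by 30 probes.

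The arrays (Affymetrix MTA 1.0, 1 for each mouse) were hybridised with RNA of 3 wild-type mice and of 4 *Ctcf*-cKO mice, aged 12 to 15 weeks. The RNA came from seminiferous tubules, although the sample titles name testes. *Ctcf*-cKO mice were *Stra8-iCre-Ctcf* f/Δ, with 1 floxed and 1 already excised copy of *Ctcf*, on a background that the methods write as C56BL/6J. In these mice the Stra8 promoter drives Cre in spermatogonia and pre-leptotene spermatocytes, so that CTCF, a zinc finger protein that organises chromatin loops, remains in spermatogonial cells and in the somatic Sertoli and Leydig cells. Wild-type littermates were of the genotypes f/f, wt/f or wt/wt without the Cre transgene, and the labels do not say which. The list holds 1 average log2 signal for each genotype and 0 columns of single arrays, so no spread between mice and no test of any difference could be computed. The list was restricted by the authors to clusters with a linear fold above 2 and p of up to 0.05, so that unlisted genes have no value and every row differs between the averages by at least 1.0 on the log2 scale. *Ctcf* itself has 0 rows.

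The list pairs no cluster with a sequence. RefSeq has windows around the annotated start for 11 of the pseudogene symbols. Those of Gm6660 and Gm14596 are shown because both belong to Xmr, the largest family with lower signals, and because RefSeq treats them as protein-coding genes although the list calls them pseudogenes. They were set beside *Slx* and *Slxl1*, the functional genes of this family, which encode X-linked proteins found in spermatids. The sequences are those of RefSeq for GRCm38.p6, each 250 bases long and ending 1 base before the start. The bases shown for Gm14596 adjoin its measured cluster, which starts at position 54349112, whereas the annotated start of Gm6660 lies before its cluster, which starts at 55311386. Capitals mark bases that differ from *Slxl1* or have no partner in a global alignment to it.
Slxl1 (chrX:55226626-55226875, plus strand): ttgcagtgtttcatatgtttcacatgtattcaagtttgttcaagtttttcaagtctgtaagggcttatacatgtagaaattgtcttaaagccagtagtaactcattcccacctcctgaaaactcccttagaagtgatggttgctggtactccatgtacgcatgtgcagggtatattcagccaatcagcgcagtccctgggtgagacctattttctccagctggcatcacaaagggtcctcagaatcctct
Slx (chrX:26545566-26545815, minus strand): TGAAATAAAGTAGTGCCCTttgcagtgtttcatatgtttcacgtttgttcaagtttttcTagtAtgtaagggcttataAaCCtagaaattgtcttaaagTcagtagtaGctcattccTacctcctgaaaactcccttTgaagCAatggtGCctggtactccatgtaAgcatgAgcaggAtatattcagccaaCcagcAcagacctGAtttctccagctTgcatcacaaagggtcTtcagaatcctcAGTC
Gm6660 (chrX:55309477-55309726, plus strand): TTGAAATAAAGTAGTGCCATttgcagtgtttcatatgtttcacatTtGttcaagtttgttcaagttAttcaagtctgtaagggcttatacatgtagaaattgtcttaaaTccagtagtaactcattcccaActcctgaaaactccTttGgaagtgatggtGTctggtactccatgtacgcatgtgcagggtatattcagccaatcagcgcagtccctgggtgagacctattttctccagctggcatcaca
Gm14596 (chrX:54348862-54349111, plus strand): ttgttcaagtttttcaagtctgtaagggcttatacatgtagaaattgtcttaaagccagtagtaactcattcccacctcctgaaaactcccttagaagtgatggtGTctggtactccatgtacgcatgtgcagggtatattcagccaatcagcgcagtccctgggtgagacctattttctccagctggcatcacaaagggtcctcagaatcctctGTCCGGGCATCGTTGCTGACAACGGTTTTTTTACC
Of the 250 bases of *Slxl1*, 221 (88.4%) were identical in Gm6660, 213 (85.2%) in Gm14596 and 205 (82.0%) in *Slx*, while 10 windows of other pseudogenes in the same table gave 47.2% to 53.6% with the same alignment. The capitals at the beginning of Gm6660 and at the end of Gm14596 are mainly bases shifted by a different annotated start. The window of *Slx* ends near the same place as that of *Slxl1*. The capitals at the beginning of *Slx* fill the fixed length of its window, because stretches of *Slxl1* are missing inside *Slx*. The letters AGGNGGC, which occur in the core of the CTCF motif, were searched on both strands from 250 bases before to 50 after the start. They were in 0 of 15 windows of pseudogene symbols, *Slx* and *Slxl1*, and in 9643 of 32851 windows in the whole table (29.4%). Of the 15 windows, 6 overlapped the cluster of their symbol and 6 lay on the same chromosome outside it. The others were 2 of *Slx* and *Slxl1* and 1 of *Cflar* on chromosome 1, the parent and not the copy. The search thus covered the start of few measured clusters, and it says only that these letters are not in these windows.

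Listed marker genes of somatic cells and of meiotic and later germ cells differed in opposite directions. Among the marker genes, 6 of 7 for Leydig cells, 6 of 8 for Sertoli cells, 3 of 4 for peritubular myoid cells, 2 of 5 for macrophages and 2 of 4 for endothelial cells were listed, and all of these were higher in *Ctcf*-cKO, by 1.06 to 2.97 on the log2 scale. *Kit* was the only 1 of 5 spermatogonial markers with a row and was higher by 2.28. By contrast, 7 of 8 markers of primary spermatocytes, 6 of 6 of round spermatids and 3 of 11 of elongating spermatids were listed, all lower, by differences from -1.60 to -1.02. Fewer cells of a type and less RNA per cell cannot be told apart in such RNA, and the part of cell composition in the differences of the pseudogenes was not tested.

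Relative to wild-type, 110 of the 281 pseudogene clusters were lower in *Ctcf*-cKO and 171 were higher, while 64.9% of all listed rows were lower and 35.1% were higher. The share of lower clusters was thus 39.1% among pseudogenes, against 75.9% in the class Coding, 49.5% in Complex and 70.9% in NonCoding. Pseudogenes of *Gapdh*, the glycolytic enzyme glyceraldehyde-3-phosphate dehydrogenase, made up 44.4% of the higher clusters. Without them, 110 clusters were lower and 95 higher, a lower share of 53.7%. The median difference was -1.21 for lower and 1.23 for higher pseudogene clusters on the log2 scale, beside -1.31 and 1.30 for all listed rows. Of the 281 pseudogene clusters, 12 were lower and 20 higher by a linear fold of 3 or more. Of all 7580 rows, 945 (12.5%) were lower and 637 (8.4%) higher past this fold, larger shares than among the 281 pseudogene clusters in both directions. None of the *Gapdh* copies passed this fold. Without them 12 of 205 clusters were lower and 20 higher past it, so that the higher share was then above that of all rows.

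The pseudogene clusters were bright for this list. The median signal of the brighter genotype was 9.98 on the log2 scale, with quartiles of 8.60 and 11.13, against 8.57 for all listed rows, 9.38 for Coding, 9.01 for Complex and 7.52 for NonCoding. None of the 281 stayed under a signal of 6 in both genotypes, as 319 of the 7580 rows did. *Gapdh* pseudogenes contributed to this level, and without them the median was 9.32. The list has a field for cross-hybridisation of the probes, which was 0 for all 281 pseudogene clusters and for 7579 of the 7580 rows and was blank for the other row. The field therefore separated no cluster from another, including clusters whose values were identical. Probes shared between a copy and its parent or sister copies were not examined, since the list holds no probe sequences.

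**Figure D1:**
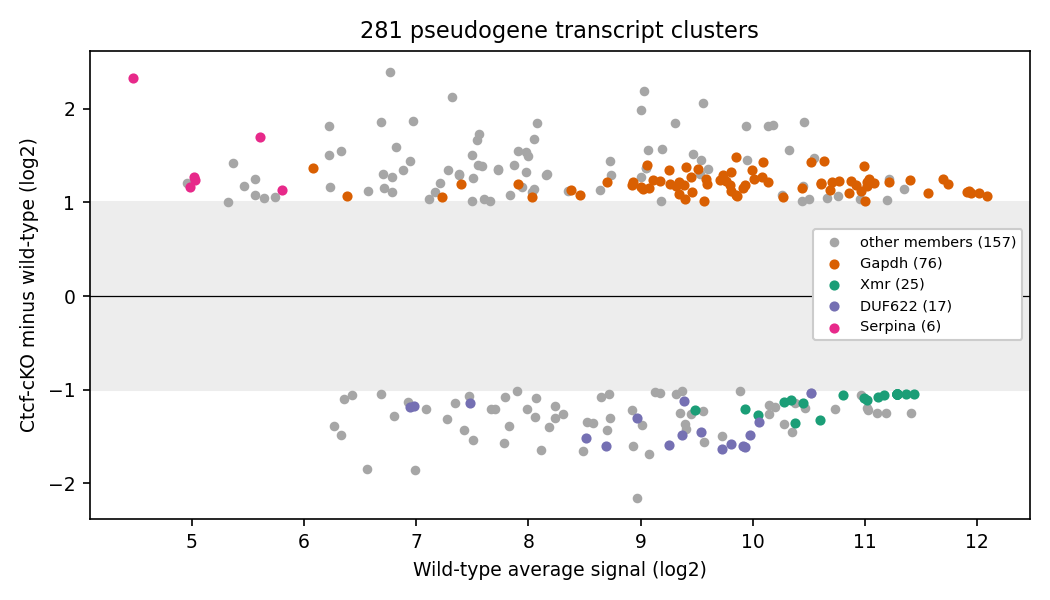
Difference between the genotype averages (Ctcf-cKO minus wild-type, log2) against the wild-type average signal (log2) for the 281 pseudogene transcript clusters, 1 point each. Gapdh pseudogenes all lie above 0, Xmr and DUF622 pseudogenes all lie below 0, and the grey band holds no points because the list starts at a linear fold of 2.

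Parents could be read from the symbol or the description for most clusters. A single parent gene was named for 173 clusters, which came from 74 parent genes, and a gene family without a single parent was named for 58 clusters from 7 families. The remaining 50 clusters had no named parent. Processed pseudogenes were lower in 46 and higher in 143 cases. Without *Gapdh*, 46 were lower and 67 higher. Unprocessed pseudogenes were lower in 61 of 78 cases, but 48 clusters of the families Xmr, Xlr, DUF622 and Speer were all lower, and outside these 4 families 13 unprocessed pseudogenes were lower and 17 higher.

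Of the 12 parents or families with 3 or more clusters, 6 had only higher clusters, 5 had only lower clusters and 1, *Rpl10*, had both.

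**Figure D2:**
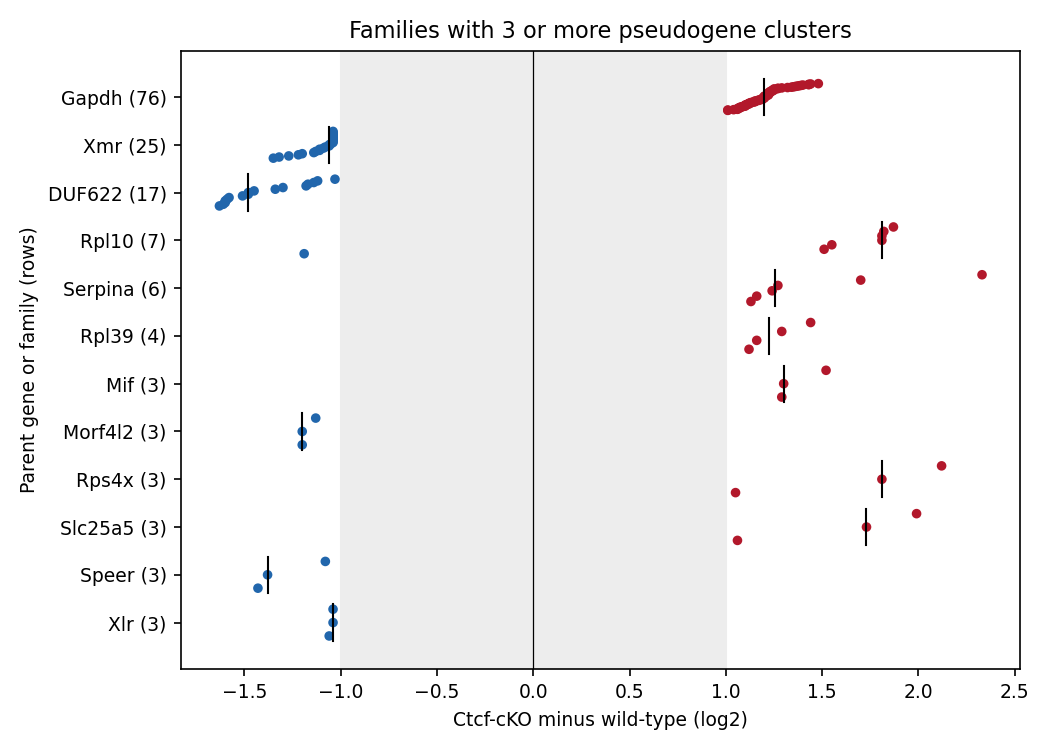
Difference between the genotype averages (Ctcf-cKO minus wild-type, log2) for every cluster of the 12 parents or families with 3 or more pseudogene clusters, with the number of clusters in brackets. Points are single clusters, red for higher and blue for lower, black bars are medians, and Rpl10 is the only family with points on both sides.

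The *Gapdh* pseudogenes were the largest group, with 76 clusters, all of processed transcripts and all higher in *Ctcf*-cKO. They lay on all 19 autosomes, with 4 on X and 1 on Y. Chromosomes 2 and 8 held 8 each. Their wild-type signals ran from 6.08 for Gm5345 to 12.09 for Gm10359, a 64.4-fold range in linear signal, and 65 were at 9 or more. The differences ran from 1.01 to 1.48 with a median of 1.20 and a standard deviation between clusters of 0.11, and 64 of the 76 lay between 1 and 1.3. The fold limit of the list fixes the lower end of this range, since copies with a smaller difference have no row, and the levels of different clusters come from different probes. Across these 76 clusters the correlation of wild-type signal with the difference was -0.03 (Pearson's r, as a description), and the clusters share the parent sequence and the arrays.

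The largest differences among the *Gapdh* pseudogenes were those of Gm3695, Gm12286, Gm3200 and Gm3534. Gm3695 (chromosome 12, positions 81372213 to 81373221 of mm10, minus strand) averaged 9.85 in wild-type against 11.33 in *Ctcf*-cKO, a difference of 1.48. Gm12286 averaged 10.64 and 12.08, Gm3200 10.52 and 11.95, and Gm3534 10.09 and 11.52. Among those with the brightest signal, Gm10359 averaged 12.09 in wild-type against 13.16 in *Ctcf*-cKO. The copy on the Y chromosome, Gm20899, rose from 11.02 to 12.19, a difference of 1.17, whereas the other 3 clusters on Y were lower. Neither the *Gapdh* locus itself nor *Gapdhs*, the form of the enzyme found in sperm, has a row, so that no level of the parent could be set beside the copies.

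**Figure D3:**
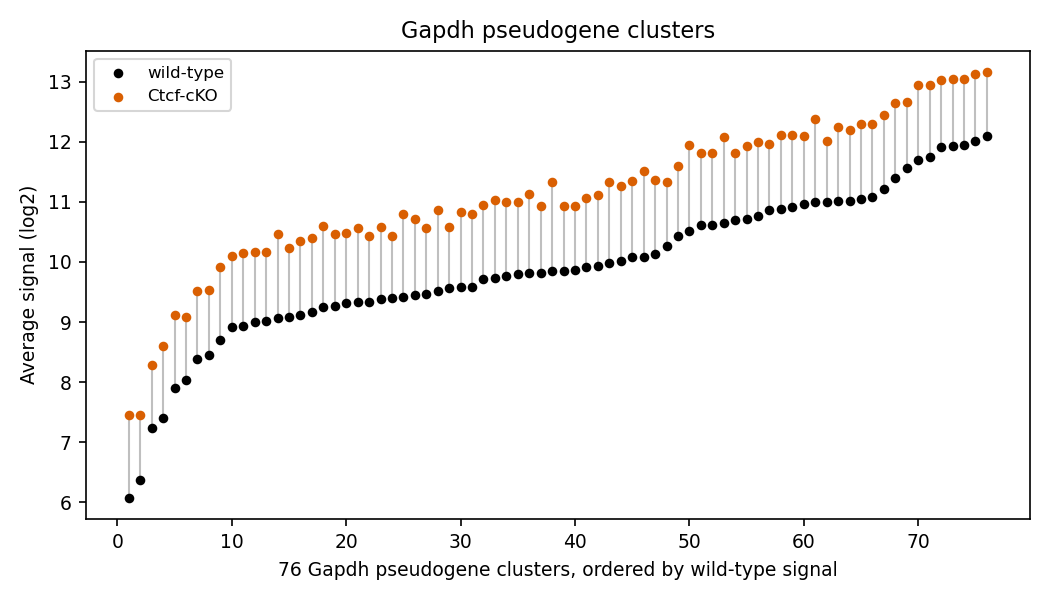
Average signal (log2) of the 76 Gapdh pseudogene clusters in wild-type (black) and Ctcf-cKO (orange), ordered by the wild-type signal, with a grey line joining the averages of a cluster. The Ctcf-cKO average lies above the wild-type average for each cluster by 1.01 to 1.48, from the dimmest to the brightest.

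Copies of ribosomal protein genes, which encode parts of the ribosome, were mostly higher, in 14 of 16 clusters, with a median difference of 1.48. Of all listed rows, 35.1% were higher. The 14 came mainly from few parents, with 6 copies of *Rpl10*, 4 of *Rpl39* and 3 of *Rps4x*, and copies of the same parent are not separate cases. *Rpl10*, *Rpl39* and *Rps4x* are X-linked genes whose own rows were in the class Ribosomal, and these 3 rows were higher by 1.70, 1.10 and 1.81. Among the 7 *Rpl10* pseudogenes, RP23-13G1.6 averaged 6.97 in wild-type against 8.84 in *Ctcf*-cKO, Rpl10-ps6 10.14 and 11.95, and the cluster listed as Gm5621 with *Rpl10* 9.94 and 11.75. Rpl10-ps1 started from 10.18 and was higher by 1.82. The 4 differences, from 1.81 to 1.87, are the largest of the family and lay within 0.17 of that of *Rpl10*. Rpl10-ps2 and Gm11688 were higher by 1.51 and 1.55, less than *Rpl10*. Gm14460 on chromosome 2, in contrast, averaged 10.47 in wild-type against 9.28 in *Ctcf*-cKO, a difference of -1.19. It had the highest wild-type signal of the 7 and was the only lower one.

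The 4 *Rpl39* pseudogenes were higher by 1.12 to 1.44. Gm12013 on chromosome 11 had the largest difference, from 8.73 to 10.17, and the 3 copies on X, Gm15148, Gm14541 and Gm15067, were higher by 1.29, 1.16 and 1.12. The 3 *Rps4x* pseudogenes differed more among themselves. Gm13680 averaged 7.32 and 9.44, a difference of 2.12, and Gm9294 6.22 and 8.03, the same difference of 1.81 as its parent. Gm12852 had the smallest difference of the 3, 1.05. The other 2 ribosomal protein copies were Rpl14-ps1, higher by 1.01, and Gm7352, a copy of *Rpl3*, which was lower by a difference of -1.07.

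Named parents outside the groups of related genes gave 27 lower and 39 higher clusters, and some of the higher ones came from parents with 3 or fewer copies. The 3 pseudogenes of *Slc25a5*, which encodes an exchanger of ADP and ATP in the mitochondrial membrane, were all higher. Gm5560 averaged 10.99 in *Ctcf*-cKO and was higher by 1.99, Gm13798 averaged 7.56 and 9.29, and Gm6425 5.74 and 6.80, beside 9.12 and 11.06 for *Slc25a5* on X. The 3 pseudogenes of *Mif*, a cytokine gene, were higher by 1.29, 1.30 and 1.52 in Gm6097, Gm10169 and Gm16379, and *Mif* by 1.48. Bhmt-ps1, a copy of the betaine-homocysteine methyltransferase gene, averaged 9.03 and 11.22, with a difference of 2.19 beside 1.98 for *Bhmt*. The fatty acid binding protein copies Fabp3-ps1 and Gm14328, the latter from *Fabp5*, were both higher by 1.86. Copies of metabolic enzymes were also among the lower clusters. Gm11814, a copy of the lactate dehydrogenase gene *Ldha*, averaged 9.37 and 8.36, and Gm9252, from the serine synthesis gene *Phgdh*, averaged 7.90 and 6.89.

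Unprocessed copies of serine protease inhibitors of clade A (Serpina) lay next to each other on chromosome 12, between positions 103744030 and 104192926, and all 6 were higher. They were among the dimmest clusters, with wild-type signals of 4.47 to 5.80. Gm17043 averaged 4.47 in wild-type against 6.80 in *Ctcf*-cKO, a difference of 2.33, and Gm17042 5.61 and 7.31, a difference of 1.70. Gm6918 and Gm17198 were higher by 1.27 and 1.24, and Gm8893 and Serpina3e-ps by 1.13 and 1.16. The 4 rows of Serpina3 genes in the classes Coding or Complex, *Serpina3g*, *Serpina3c*, *Serpina3n* and *Serpina3i*, were higher as well, by 3.21, 2.35, 1.87 and 1.03.

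The copies of enzymes for steroid and xenobiotic metabolism were higher in 5 of 5 clusters. Gm12431 and Gm12427, described as hydroxysteroid dehydrogenase pseudogenes, lie on chromosome 3. Gm12431 averaged 9.56 and 11.62, a difference of 2.06, and Gm12427 7.59 and 8.98. *Hsd3b6* and *Hsd3b1*, which encode steroid enzymes of Leydig cells and are on the list of Leydig markers, were higher by 2.29 and 1.81. The glucuronosyltransferase copies Gm15368 and Gm15376 were higher by 1.42 and 1.25, and both overlap the row of *Ugt1a2*, higher by 1.67, on the same strand.

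Of the 5 parents or families with only lower clusters, Xmr, Xlr, DUF622 and Speer have numerous copies in the mouse genome, and the other is *Morf4l2*, described with the parent pairs. Across the list of germ cell families with many copies, 49 of 49 clusters were lower, with a median difference of -1.13, where 64.9% of all listed rows were lower. The 49 are the 48 clusters of these 4 families and Gm14544, a copy of *Rhox11*. The largest was Xmr, an older name of *Slx*. All 25 Xmr clusters were unprocessed and on X, between positions 24242173 and 55912887. Their wild-type signals were 9.49 to 11.44, and their differences ran from -1.35 to -1.04 with a median of -1.06. In the list, 10 of the 25 had exactly the same averages, 11.29 in wild-type against 10.25 in *Ctcf*-cKO, over 80 probes each, so the 25 clusters held 16 distinct sets of values. The 10 are Gm2288, Gm2318, Gm3657, Gm3681, Gm7375, Gm7386, Gm7398, Gm7408, Gm7415 and Gm7438.

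The 4 largest differences in the Xmr family were those of clusters under its median wild-type signal of 11.17. Gm14598 averaged 10.38 in wild-type against 9.03 in *Ctcf*-cKO, a difference of -1.35. Gm6660 averaged 10.60 and 9.28, Gm14596 10.05 and 8.78, and Gm14624 9.49 and 8.27. These 4 lie between positions 53816129 and 55912887 of X, in a block of 7 Xmr and Xlr clusters with a median difference of -1.22. The block from 24242173 to 30702935 held 18 Xmr clusters and 1 Xlr cluster, all lower, with a median of -1.04. The functional genes, whose bases before the start were shown beside those of Gm6660 and Gm14596, moved in the same direction, since *Slx* averaged 10.66 and 9.57 and *Slxl1* 10.43 and 9.18. In all, 67 of 67 rows of the classes Coding or Complex with the protein domain of this family were lower, of which 23 were on X and 44 on Y. These classes also hold rows described as pseudogenes of this family, so the 67 are not a count of functional genes.

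The DUF622 clusters, named for a protein domain of unknown function, were the second large family with lower signals. All 17 were unprocessed and lower, by differences from -1.63 to -1.03 with a median of -1.48. Of these, 14 lay within 3.26 Mb on chromosome 14, between positions 41517217 and 44779762, and Gm6586 was on chromosome 5. The largest differences were those of Gm3008, Gm8065, Gm6536 and Gm7152. Gm3008 averaged 9.73 in wild-type against 8.10 in *Ctcf*-cKO, Gm8065 9.93 and 8.32, Gm6536 8.69 and 7.09, and Gm7152 9.91 and 8.31. Gm3760, which lies apart at position 7498713, had the brightest wild-type signal of 10.52 and the smallest difference of -1.03. Rows of the classes Coding or Complex with this domain were lower in 141 of 141 cases, and these classes also hold rows described as DUF622 pseudogenes.

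In the block on chromosome 14 the only higher cluster was Gm16439, a processed copy of *Bnip3*, a gene of mitochondrial turnover. It averaged 7.98 in wild-type against 9.52 in *Ctcf*-cKO, and *Bnip3* on chromosome 7 was higher by 1.40. The copy thus had the direction of its parent and not that of the clusters around it.

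The Speer family encodes glutamate-rich proteins of the testis. Its 3 pseudogene clusters, Gm8582, Gm6650 and Gm3053, were lower with differences of -1.43, -1.38 and -1.08, and 11 of 11 rows with Speer symbols in other classes were lower. The 11 include rows that are themselves named pseudogenes, such as Speer1-ps1 and Speer8-ps1, so they are not a count of functional genes. The 3 Xlr pseudogenes on X, Gm14599, Gm16428 and Gm6956, were lower with differences of -1.06, -1.04 and -1.04.

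Chromosome X held 24.9% of the pseudogene clusters, 70 in all, but 7.44% of all listed rows. Of these 70, 50 were lower and 20 higher, a lower share of 71.4% where all listed rows on X had 49.6%. Outside the Xmr family 25 were lower and 20 higher. Chromosome 14 held 18 lower and 6 higher clusters, and on Y 3 were lower and 1 was higher. No cluster was lower on chromosomes 10, 12, 13, 15, 16, 18 and 19, which held 1 to 10 clusters each. Of the 41 clusters on these 7 chromosomes, 24 were *Gapdh* copies, 6 were the Serpina copies on chromosome 12 and 11 were others. Among all rows there, 52.4% to 67.4% were lower.

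**Figure D4:**
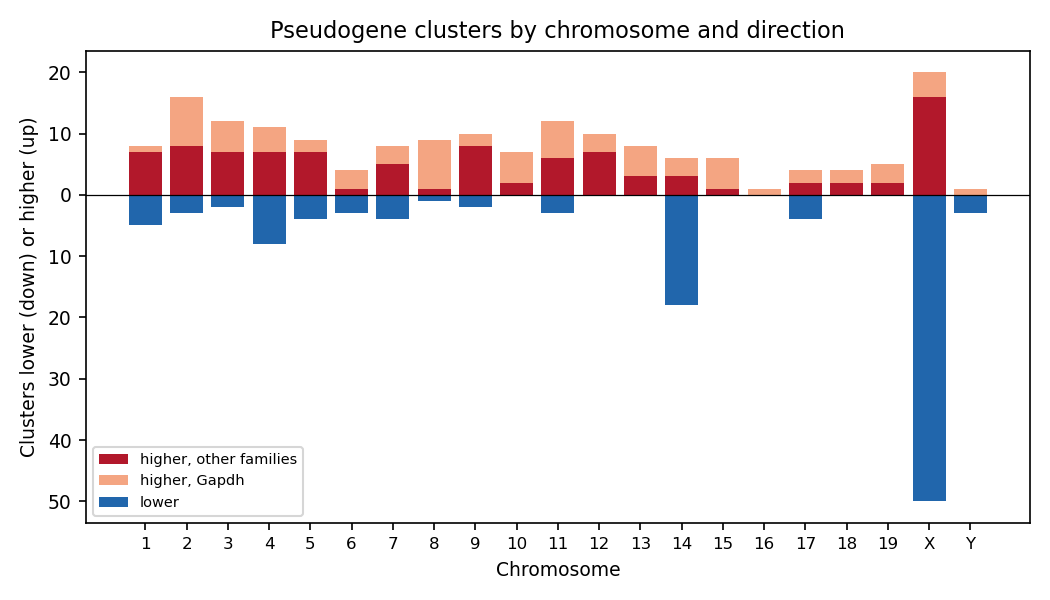
Number of pseudogene clusters on each chromosome, higher in Ctcf-cKO above 0 (light red for Gapdh pseudogenes, dark red for the others) and lower below 0 (blue). Lower clusters are most numerous on X with 50 and on chromosome 14 with 18.

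Other lower clusters on X had no named parent. Gm15143, Gm5947, Gm5645, Gm5646 and Gm15142 lie close together between positions 154065196 and 154639147. Gm15143 averaged 8.49 in wild-type against 6.84 in *Ctcf*-cKO, Gm5646 8.11 and 6.47, Gm5947 9.57 and 8.01, Gm15142 7.51 and 5.97, and Gm5645 9.73 and 8.24. In the class Coding, 4 rows described with spermatogenesis associated multipass transmembrane protein 1 were lower too, by differences from -1.58 to -1.44, and the descriptions of 3 of them, 4921511M17Rik and both rows of Gm10057, also name Gm15143, Gm5947, Gm5646 and Gm5645. RefSeq calls 4 of the 5 protein-coding, Gm5646 being the exception. Of all 13 clusters with a protein-coding entry in RefSeq, 11 were lower, where 64.9% of all listed rows and 75.9% of the class Coding were lower. These 11 include the 4 clusters just named and clusters of Xmr and DUF622, families that were all lower. The other 2 of the 13, *Pramel* on X and Gm11295 on chromosome 13, were both higher by 1.30. The 3 lower clusters on Y, Gm21920, Gm21784 and Gm21728, had nearly the same wild-type signals of 11.11, 11.03 and 11.02, and differences of -1.25, -1.22 and -1.19.

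The cluster with the largest negative difference of all 281 was Gm381 on X (positions 126905581 to 126907617, minus strand), which averaged 8.97 in wild-type against 6.82 in *Ctcf*-cKO, a difference of -2.15 or a linear fold of -4.44, written with a minus sign for a lower signal. The symbol Gm381 has another position in RefSeq. Next came Gm11786, a copy of the cell cycle kinase gene *Cdk6*, from 6.99 to 5.13, Gm6632 from 6.56 to 4.72 and Gm10444 from 9.08 to 7.40. At the other end, Gm6166 on chromosome 9 averaged 6.77 in wild-type against 9.16 in *Ctcf*-cKO, the largest positive difference of 2.39 or a linear fold of 5.24. Neither Gm381 nor Gm6166 had a named parent. The clusters nearest to the fold limit were Gm9252 and Gm13989 with differences of -1.01, Gm16397 with 1.00 and Akt2-ps with 1.01. No value of a cluster just outside the limit is in the list.

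For the pseudogenes with a single named parent, the parent's own row was sought at its RefSeq locus. Of the 74 parents, 39 had a row and 35 had none. These 39 were the parents of 59 clusters, and the other 114 clusters, 76 of them *Gapdh* copies, had no parent value. With parent rows of the classes Coding or Complex, 41 clusters had the direction of the parent and 4 the opposite one. With parent rows of any class these were 54 and 5, of which 46 were higher and 8 lower together with the parent. The difference of the copy lay within 0.5 of that of the parent in 50 of 59 pairs, with a median gap of 0.18 on the log2 scale. Both rows of a pair had passed the fold limit before, which leaves out parents with smaller differences. The limit also narrows the gap between rows of the same direction, since the medians of all listed rows were -1.31 and 1.30. Of the 39 parent rows 32 were higher, which by itself favours a shared direction. Neither the gap nor the agreement was set beside that of unrelated rows, so no conclusion is drawn from them.

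**Figure D5:**
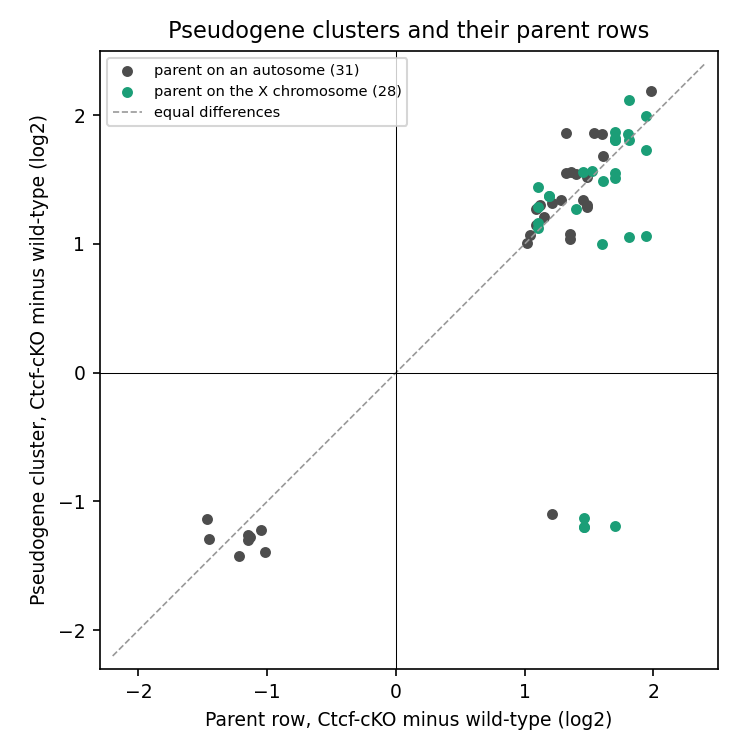
Difference of the pseudogene cluster against the difference of its parent row (each Ctcf-cKO minus wild-type, log2) for the 59 pairs, with parents on X in green and on an autosome in grey. Most points lie near the dashed line of equal differences, and 5 points in the lower right hold a lower copy of a higher parent.

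Pairs with higher signals included copies of X-linked housekeeping genes. All 12 X-linked parents with a row were higher, while 20 autosomal parent rows were higher and 7 lower. Gm11914, a copy of the nucleosome binding protein gene *Hmgn5*, averaged 8.08 and 9.93, and *Hmgn5* 7.22 and 9.02. Gm6382 from *Rbbp7*, a histone chaperone gene, averaged 9.19 and 10.76, and its parent 9.61 and 11.13. Gm10156 from *Rbm3*, an RNA binding protein gene, averaged 10.32 and 11.88, beside 7.50 and 8.95 for *Rbm3*. Gm5637 on X averaged 9.31 and 11.16, and *Arpc1b*, a gene of the actin nucleating complex on chromosome 5, 7.98 and 9.58; the parent row also lists the name of the pseudogene. Gm11951 from the interferon-induced gene *Ifitm2* was higher by 1.68 and its parent by 1.61. Gm6517 was higher by 1.56 and its parent, the myosin light chain gene *Myl12b*, by 1.36. Across the single-parent copies on autosomes, 16 of 17 with an X-linked parent and 105 of 128 with an autosomal parent were higher. Of the copies on X, 8 of 12 with an X-linked parent and 9 of 15 with an autosomal parent, *Gapdh* included, were higher. Among all listed rows 35.1% were higher. The 17 copies came from only 7 parents and the 128 from 52, and copies of the same parent are not separate cases. Without the *Gapdh* copies, which are among the 128, 34 of 57 with an autosomal parent were higher.

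The 8 clusters that were lower together with the parent came from 7 parents, several of which are known from dividing or meiotic cells. Gm15529, described as a part of *Hormad1*, a gene of meiotic chromosome axes, averaged 9.41 in wild-type against 7.99 in *Ctcf*-cKO, and *Hormad1*, itself on the list of spermatocyte markers, 9.41 and 8.19. Gm13176 from *Prc1*, a cytokinesis gene, had a difference of -1.29 and its parent -1.45. RP24-378F2.2 from *Cenpe*, a kinetochore motor gene, had -1.14 and its parent -1.47. Gm5648 from *Uhrf1*, a gene for the maintenance of DNA methylation, had -1.22 and its parent -1.05. Gm7031 and Gm4831 from *Senp2*, a SUMO protease gene, had -1.30 and -1.26, and *Senp2* had -1.15. Gm4764 from *Tes* had -1.28 and its parent -1.13, and Gm4982 from *Tdpoz3* had -1.39 and its parent -1.02.

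In 5 pairs the copy was lower and the parent higher. Of these, 3 were the *Morf4l2* copies Gm5123, Gm5755 and Gm5073, which lie within 0.3 Mb of each other on X between positions 17622570 and 17917490. *Morf4l2* encodes a subunit of a histone acetyltransferase complex. Gm5123 averaged 7.67 in wild-type against 6.47 in *Ctcf*-cKO, Gm5755 7.70 and 6.50, and Gm5073 6.93 and 5.80, whereas *Morf4l2*, also on X, averaged 7.31 and 8.77. The fourth was Gm8475 on X, a copy of the endosomal GTPase gene *Rab7*, which averaged 6.36 and 5.26 beside 9.41 and 10.62 for *Rab7*. The fifth was Gm14460, described above, beside a parent row of *Rpl10* that averaged 6.83 and 8.53. In 4 of the 5 pairs the parent is X-linked, and in 4 of the 5 the copy is on X. No pair had a higher copy and a lower parent.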

How the data were processed

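Total RNA was labelled with biotin and hybridised to 1 array per mouse, with 4 *Ctcf*-cKO and 3 wild-type mice. Per the submitters' processing notes, the authors used Affymetrix Expression Console 1.4.1 with RMA, Transcriptome Analysis Console 3.0 and build mm10. The deposited table gives the authors' bi-weight average log2 signal of each genotype, with decimal commas, for the 7580 transcript clusters that passed a linear fold of 2 and p of 0.05. Its columns of fold change, analysis of variance p and adjusted p were not used. Differences, as *Ctcf*-cKO minus wild-type, were computed from the averages, which are rounded to 2 decimals, with Python 3.11.15 and pandas 2.3.3, and linear folds are 2 to the power of the difference. With averages only, limma could not be fitted, and the precision is limited by the few arrays. Parents were read from symbols and descriptions, and parent rows were required to overlap the parent's locus in RefSeq (GRCm38.p6). Blocks join clusters less than 2 Mb apart. Alignments used Biopython 1.88. The functions were tested on simulated data. The named clusters were the 10 with the largest difference in each direction, up to 4 per family, pairs with opposite directions and up to 20 with the same direction, and the 2 nearest to the fold limit in each direction. Clusters named outside this rule were chosen after their values were seen. The members, families and marker lists were chosen with earlier results of these data known.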

Additional observations from a re-analysis of the deposited data

How the results depend on the processing

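The counts of 110 lower and 171 higher pseudogene clusters stayed within 1.5 times when clusters with equal values were counted once, with a signal of at least 6 or 7 in either genotype, without clusters that overlap a coding row, and with members taken by every symbol. A linear fold of 3 left 12 lower and 20 higher clusters, 8 pairs with the direction of the parent and 0 with the opposite one, 1 family with only lower clusters and 0 with both directions. Re-centring on the median of all listed rows (-1.15) left 1 lower cluster past a fold of 2 and 171 higher ones; all rows had been selected by fold, so this median is not that of the array. Counting each parent or family once, chosen after seeing the data, gave 32 lower and 49 higher, and leaving out *Gapdh* pseudogenes, chosen likewise, gave 95 higher. Opposite pairs numbered 2 with a signal of at least 7 and 2 with each parent counted once. Leaving out single mice, another normalization and limma were not run because the table holds averages only, and parents were not sought by sequence because no genome was used here. No paired analysis was possible because the columns are averages over all mice of a genotype. The depth of the signal over background is not given in the sources used here.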

Other observations

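Pseudogenes also occur outside the class Pseudogene. The descriptions of 261 rows in other classes contain the word pseudogene, of which 239 are in Complex, 16 in Coding and 6 in NonCoding. Of the 261, 197 were lower and 64 higher, where 64.9% of all listed rows were lower. In the class itself 110 were lower and 171 higher, but without its *Gapdh* copies 110 were lower and 95 higher. The 261 include rows of DUF622, Xmr and Speer, families that were all lower in the class. Some of the 261 rows join a gene with a copy, so the 2 sets were not tested against each other. Among 12 of these rows described as *Gapdh* pseudogenes, 10 were higher by 1.05 to 1.23, within the range of the 76 clusters of the class. Gm7336, whose description names *Gapdh* without the word pseudogene, was higher by 1.13. The other 2 of the 12 were lower. Gm17044 on chromosome 15 averaged 7.34 in wild-type against 5.68 in *Ctcf*-cKO, and Gm7788, in NonCoding, averaged 8.42 and 6.93.

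Copies of other parents appear there as well. Gm15453 and Gm13624, copies of *Rbm3*, were higher by 1.85 and 1.62, beside 1.45 for *Rbm3* and 1.56 for Gm10156. Gm11450, a copy of *Rpl10*, was higher by 1.78, Rpl39-ps by 1.85 and Rpl36a-ps1 by 1.11. Copies of other ribosomal protein genes there were lower. The differences were -1.43 for Gm11420 from *Rps20*, -1.28 for Gm12550 from *Rpl35a* and -1.64 for Gm12754 from *Rps27a*. Gm12806 from *Rpl37* had -1.69 and Gm15508 from *Rpl31* had -1.84. Gm5424, a copy of the argininosuccinate synthase gene, averaged 8.50 in wild-type against 10.92 in *Ctcf*-cKO, and *Ass1* itself averaged 8.91 and 11.08. Gm17074, Gm17170 and Gm26817 on chromosome 14, described as copies of *Hmgb1*, a chromatin protein gene, were lower by differences of -1.79, -1.78 and -1.79. Sycp1-ps1, a copy of a gene of the synaptonemal complex, averaged 7.56 and 5.70. These rows were chosen after their values were seen.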
